A study of Mus musculus with 27 samples.

Results

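Cortex on the side of a transient stroke was compared with cortex from sham-operated mice 3 h after blood flow returned. The comparison takes 6 of the 27 libraries of the series, 3 ipsilateral and 3 sham, and covers every gene in the table. Of 22340 rows, 18087 had enough counts to be tested. All animals were wildtype C57BL6 mice of 7 to 8 weeks. In the stroke groups a suture closed the right middle cerebral artery for 35 min, the common carotid artery was tied, and blood flow in the territory had to drop below 15% and recover above 80%. Sham mice were anaesthetised and had the arteries exposed, with no filament placed. The labels do not say from which hemisphere or at what time after surgery sham cortex was taken. Contralateral cortex at 3 h (3 libraries) and ipsilateral cortex at 6, 12 and 24 h (9 libraries), from mice with the same surgery, are used only to place the result.

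After a period without blood, neurons and glia that receive oxygen again face misfolded protein, calcium load and inflammatory signals. Cells answer first with genes that need no new protein to be transcribed. Among them are the immediate early transcription factors such as Fos, Jun and Atf3, the heat shock chaperones driven by heat shock factor, and the first cytokines made by microglia and vessel cells.

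Total RNA depleted of ribosomal RNA was sequenced, and levels are given in CPM, each count divided by the TMM-scaled size of its library. The 6 libraries held 31469675 to 48830897 counts, and replicates within a group had Spearman correlations of 0.976 to 0.994. Mitochondrial ribosomal RNA took 25.3% to 31.5% of the counts. Replicate 1 of the ipsilateral group stood apart: the summed level of 11 choroid plexus markers was 757 CPM there, against 17.0 and 16.1 CPM in the other ipsilateral libraries and 8.50 to 16.6 CPM in sham. Its striatal neuron markers summed to 716 CPM, against 433 and 265 CPM in the other ipsilateral libraries and 331 to 511 CPM in sham. Markers of excitatory neurons (2731 to 3612 CPM ipsilateral, 3003 to 3424 CPM sham) and of resting microglia (228 to 235 and 232 to 278 CPM) were present in every library. None of the 14 marker lists held a gene past the threshold in edgeR, with 1 choroid plexus gene past it in DESeq2. In bulk tissue, fewer cells of a type and less RNA per cell cannot be told apart.

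At 3 h the ipsilateral cortex differed from sham in 44 genes. In edgeR's quasi-likelihood test, at a Benjamini-Hochberg adjusted p under 0.05 over all tested genes, 41 rose (0.227% of those tested) and 3 fell (0.0166%). Of the 44, 32 were at least 2-fold higher, and in all 44 the 3 ipsilateral libraries lay outside the range of the 3 sham libraries. That separation alone was common: 9.25% of all tested genes had every ipsilateral library above every sham library, and 8.35% had every one below. At an unadjusted p under 0.05 there were 997 higher and 554 lower genes, and the median log2 fold change of all genes was 0.00. Without ipsilateral replicate 1, 25 genes rose and 3 fell, and 22 of the 44 were still called. Leaving out sham replicate 1, 2 or 3 gave 17, 16 and 10 rises, and leaving out ipsilateral replicate 2 or 3 gave 23 and 19. With surgery day as a block, 42 rose and 9 fell.

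**Figure D1:**
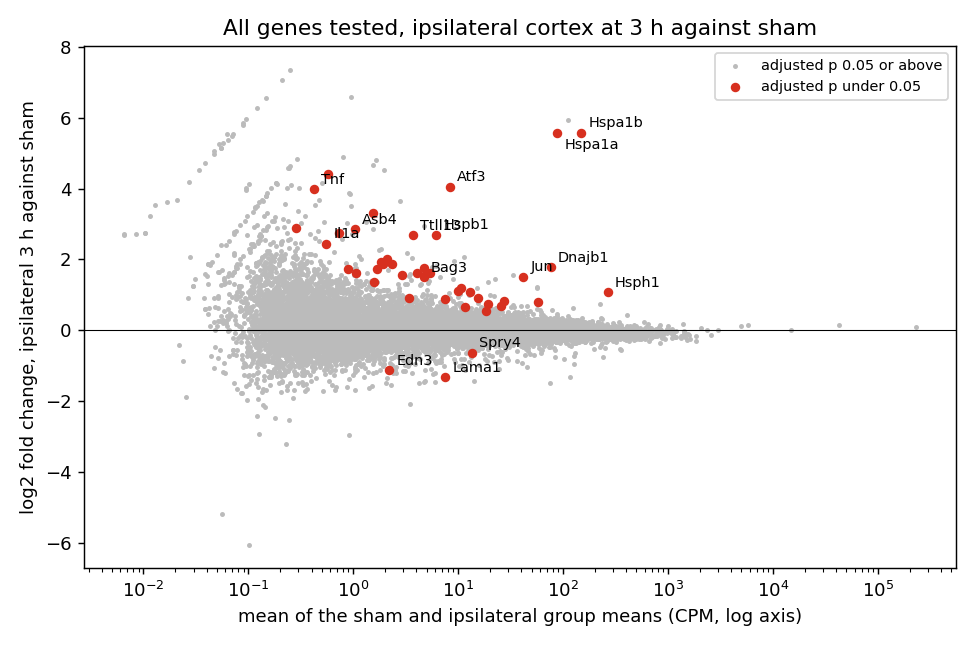
Log2 fold change of ipsilateral cortex at 3 h against sham (vertical axis) for each tested gene, against the mean of the 2 group means in CPM on a log axis. Red points are the 44 genes with an adjusted p under 0.05, of which 41 lie above 0 and 3 (Spry4, Edn3 and Lama1) below it.

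There were 10 genes called in each of the 6 fits that left out 1 sham or ipsilateral library: Hspa1a, Hspa1b, Hspb1, Dnajb1, Atf3, Ttll13, Slc15a3, Asb4, Gm10634 and Lama1. Of these, 9 were called under all 15 alternatives, and Hspa1b missed the threshold under 1 of them, a block fit of the 6 libraries (adjusted p = 0.0537). The other 34 lost the call in at least 1 fit without a library, and their highest adjusted p over the alternatives ran from 0.0545 (Rasgef1b) to 0.264 (Kif23).

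Among the called genes, the heat shock chaperones Hspa1a and Hspa1b had the largest rises. Of the 25 listed chaperones, 6 rose and none fell (9 at an unadjusted p under 0.05 and 6 in DESeq2), with a list median of 0.19 on the log2 scale beside 0.00 for all genes. Their summed level was 4613 to 4994 CPM in ipsilateral cortex and 3494 to 3957 CPM in sham.

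Hspa1a and Hspa1b encode the inducible Hsp70 chaperone and lie near each other on chromosome 17 (Hspa1a at 34969190 to 34972156, minus strand, mm10). Hspa1a was at 3.03, 4.41 and 3.44 CPM in the 3 sham libraries and at 117, 211 and 191 CPM in the ipsilateral ones. It was 47.6-fold higher (log2 fold change 5.57, SE 0.39, adjusted p = 1.43e-07 in edgeR). Hspa1b was at 6.44, 7.67 and 4.14 CPM in sham and at 193, 363 and 322 CPM in ipsilateral cortex (5.58, SE 0.44, adjusted p = 1.12e-06). Ipsilateral replicate 1 was the lowest of its group for both. Of the 50-base stretches of the Hspa1a transcript in GENCODE M21, 58.8% also occur in the Hspa1b transcript, and 62.3% the other way, so how reads were split between the copies is uncertain. Their promoter windows share 296 of 300 bases.

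Hspb1, a small heat shock protein that holds unfolded protein and is also made by reactive astrocytes, was at 1.34, 2.14 and 1.4 CPM in sham and at 7.97, 11.9 and 12.1 CPM in ipsilateral cortex (2.70, SE 0.30, edgeR adjusted p = 1.03e-05). Dnajb1, the Hsp40 partner that hands clients to Hsp70, was at 36.1, 35.5 and 31.8 CPM in sham and at 86.3, 139 and 129 CPM after stroke (1.78, SE 0.24, edgeR adjusted p = 0.000603). The groups were well separated for both, with replicate 1 again the lowest ipsilateral library. Bag3, a co-chaperone of Hsp70 in selective autophagy, rose from between 2.13 and 2.87 CPM in sham to between 6.48 and 7.51 CPM (1.50, SE 0.26, edgeR adjusted p = 0.00493). Hsph1, the nucleotide exchange factor Hsp110, was at 185, 168 and 160 CPM in sham and at 361, 356 and 367 CPM after stroke (1.08, SE 0.21, edgeR adjusted p = 0.0198). Bag3 and Hsph1 missed the threshold under some alternatives, with adjusted p up to 0.0732 and 0.156. Abundant chaperones that did not pass were the constitutive Hspa8, with a log2 difference of 0.19 (edgeR adjusted p = 0.832), the constitutive Hsp90ab1 (-0.05, 0.965), the stress-inducible Hsp90aa1 (0.13, 0.925) and the endoplasmic reticulum chaperone Hspa5 (0.17, 0.916).

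Promoter letters are shown for 3 called chaperones and 2 called stress response genes. Sequences are from RefSeq on GRCm38.p6, in windows of 250 bases before to 50 bases after the start, and 33 of the 44 called genes had one. In all, 11 patterns were scanned on both strands, 8 at first and 3 added after the matches of the first 8 had been seen, and the 2 patterns printed were chosen after the matches were seen. They are descriptions, with no test. The letters GAANNTTC, 2 facing units of a heat shock element, stood in 5 of the 6 called chaperones (Hspa1a, Hspa1b, Hspb1, Hsph1 and Bag3), in 11 of 20 listed chaperones with a promoter (55%), in 8 of 33 called genes (24.2%) and in 914 of the 12403 tested genes with a promoter (7.37%). Capitals mark the match, bases are 5′ to 3′ on the gene's strand, and only bases before the start are printed.
Hspa1a (chr17:34972223-34972290, minus): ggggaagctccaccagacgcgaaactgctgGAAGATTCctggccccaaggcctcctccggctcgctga
Hspa1b (chr17:34959305-34959372, minus): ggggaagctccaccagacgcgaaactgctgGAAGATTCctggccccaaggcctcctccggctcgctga
Hspb1 (chr5:135887772-135887859, plus): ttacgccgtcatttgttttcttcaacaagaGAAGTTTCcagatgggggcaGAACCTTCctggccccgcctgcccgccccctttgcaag

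The full heat shock element of 3 such units was in 0.629% of all promoters and in 1 of the 33 called genes, Hsph1. The back-to-back letters TTCNNGAA, added later, were in 8.39% of all promoters and in 2 called genes, and either orientation together in 14.4% and in 8 called genes. TGANTCA, the AP-1 letters, were in 6.71% of all promoters and in 6 of the 33 (18.2%). The cyclic AMP response element TGACGTCA was in 3.18% and in 2 of the 33, and with 1 base left free, TGACGTNA, in 4.98% and in 3. The other 4 first patterns were a loose kappaB pattern (80.5% of all promoters, 27 of the 33), a strict one (20.3%, 13 of the 33), the CArG box (1.64%, 0 of the 33) and the glucocorticoid response element (0.476%, 0 of the 33). TGACGTNA is shown for Atf3 and Ppp1r15a, a transcription factor and a phosphatase subunit of the stress response that both rose. Atf3 matches only because 1 base was left free.
Atf3 (chr1:191183334-191183373, minus): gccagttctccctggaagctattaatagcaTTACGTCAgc
Ppp1r15a (chr7:45526269-45526310, minus): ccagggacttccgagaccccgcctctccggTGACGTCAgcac

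**Figure D2:**
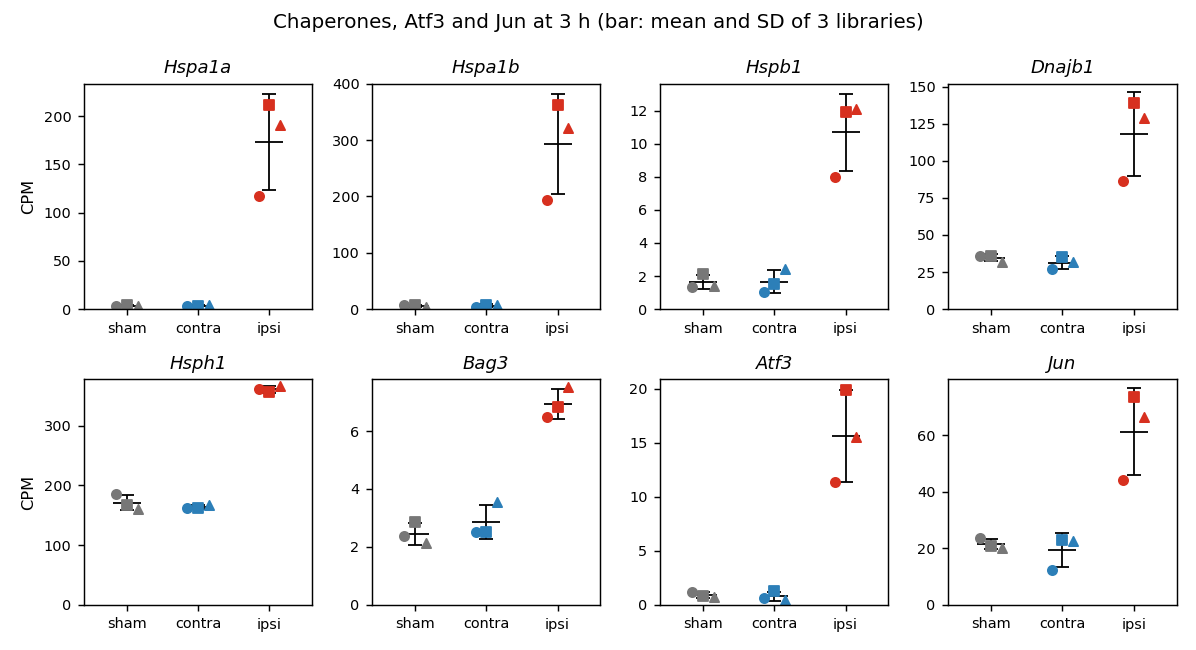
CPM (vertical axes, from 0) of 6 chaperones, Atf3 and Jun in sham, contralateral and ipsilateral cortex at 3 h. Circles, squares and triangles are replicates 1, 2 and 3, and bars are the mean and SD of 3 libraries. Every ipsilateral library lies above every sham and contralateral library.

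Among immediate early transcription factors, Atf3 and Jun passed of 28 tested (12 at an unadjusted p under 0.05, 4 in DESeq2), and the list median was 0.50. Atf3, a stress-induced repressor of the ATF/CREB family, was at 1.23, 0.865 and 0.700 CPM in sham and at 11.4, 19.9 and 15.5 CPM in ipsilateral cortex, 16.6-fold higher (4.06, SE 0.50, edgeR adjusted p = 0.000319). Jun, an AP-1 subunit, was at 23.5, 21 and 20.3 CPM in sham and at 44.1, 73.5 and 66.4 CPM after stroke (1.51, SE 0.27, edgeR adjusted p = 0.00997). Neither gene overlapped between groups, but the Jun call was lost without sham replicate 1, 2 or 3 (adjusted p = 0.0509, 0.0837 and 0.0941) and without ipsilateral replicate 2 or 3 (0.0563 and 0.0556). Jun overlaps its antisense gene Junos, and the labels do not say whether counting used strand.

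The activity-driven members of this class did not pass against sham. Fos, the partner of Jun, was at 47.5, 25.8 and 28.4 CPM in sham and at 58.1, 98.7 and 79.4 CPM in ipsilateral cortex (1.22, SE 0.53, edgeR adjusted p = 0.502). Npas4, which neurons switch on with calcium entry, was at 19.3, 15.5 and 15.8 CPM in sham and at 38.7, 53.8 and 57.2 CPM after stroke (1.57, SE 0.50, edgeR adjusted p = 0.244). Their ipsilateral libraries lay above all sham libraries, while those of Egr1 (77.3 to 122 CPM sham, 89.9 to 139 CPM ipsilateral) and Junb (40.6 to 72.9 and 39.7 to 58.4 CPM) overlapped with sham. Arc, a synaptic protein made on activity, was at 273, 190 and 236 CPM in sham and at 111, 176 and 193 CPM in ipsilateral cortex (-0.54, SE 0.35, edgeR adjusted p = 0.759).

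**Figure D3:**
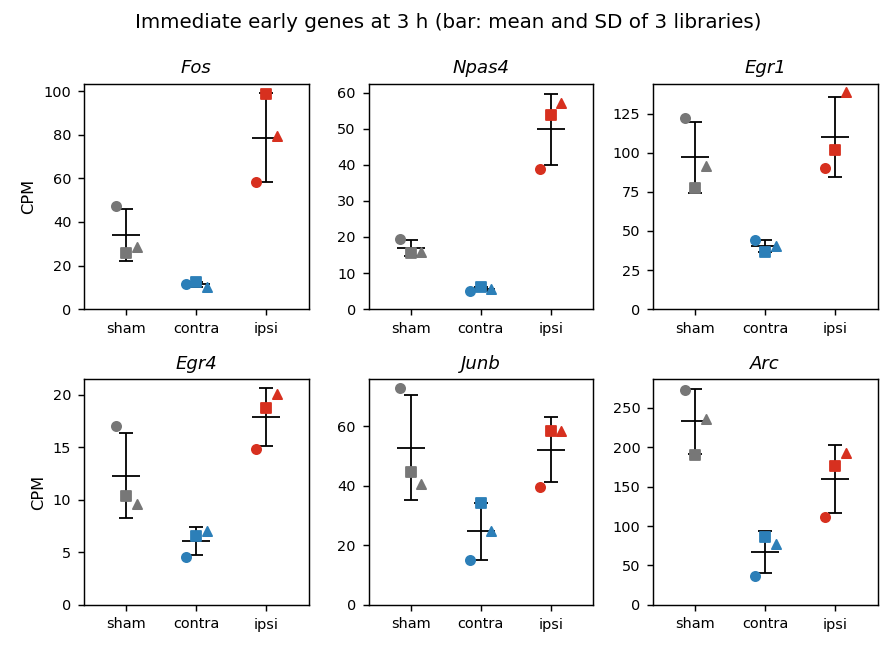
CPM (vertical axes, from 0) of 6 immediate early genes in sham, contralateral and ipsilateral cortex at 3 h. Circles, squares and triangles are replicates 1, 2 and 3, and bars are the mean and SD of 3 libraries. For Fos and Npas4 every contralateral library is below and every ipsilateral library above the sham range.

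Other transcriptional regulators that rose were named after their values were seen. Sox9, a factor of astrocytes and their precursors, was at 6.51, 5.85 and 6.53 CPM in sham and at 14.9, 12.5 and 13.5 CPM after stroke (1.11, SE 0.21, edgeR adjusted p = 0.00814). Klf11 rose from between 4.87 and 5.89 CPM in sham to between 9.12 and 10.4 CPM (0.89, SE 0.17, edgeR adjusted p = 0.0162), and Zbtb1 from between 10.4 and 11.4 CPM to between 16 and 23.1 CPM (0.92, SE 0.19, edgeR adjusted p = 0.0236). These 3 calls were lost under some alternatives, with adjusted p up to 0.0837, 0.149 and 0.150.

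Cytokine transcripts were few in both groups. Tnf and Il1a rose, of 22 cytokines and chemokines (9 at an unadjusted p under 0.05, 5 in DESeq2). In 10 of 22 every ipsilateral library was above every sham library, beside 9.25% of all tested genes. The list median was 2.15, or 2.00 with the 2 members at 0 in sham set to their bound from a floor of 3 counts over the group. Tnf, an early inflammatory cytokine, had 2, 4 and 0 counts in sham and 22, 60 and 18 in ipsilateral cortex, a pooled ratio of 17.5 with a 95% interval of 7.75 to 48.7 that covers counting error only (edgeR log2 fold change 3.98, SE 0.70, adjusted p = 0.00493). Il1a, an alarm cytokine, had 2, 7 and 11 counts in sham and 28, 53 and 29 after stroke (2.44, SE 0.55, edgeR adjusted p = 0.0454). The Tnf call was lost without sham replicate 1 (adjusted p = 0.0567) or 3 (0.0689). The Il1a call was lost in all 6 fits without 1 sham or ipsilateral library, with adjusted p from 0.0545 to 0.244.

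Chemokines that call monocytes and neutrophils had more counts after stroke but did not pass. Their 95% intervals are from pooled counts and cover counting error only, not the spread between libraries. Ccl4 had 218 pooled counts in ipsilateral cortex and 2 in sham (ratio 114, 95% interval 31.2 to 949, edgeR adjusted p = 0.102). Ccl3 had 180 and 6 (ratio 31.4, 14.2 to 86.8, adjusted p = 0.148) and Ccl2 205 and 14 (ratio 15.3, 8.94 to 28.6, adjusted p = 0.206). The edgeR SE on the log2 scale were 1.62 for Ccl4, 1.33 for Ccl3 and 1.18 for Ccl2. Cxcl2 had 18 counts and 0 in sham, 6.29-fold higher against the floor of 3 counts over the group (edgeR adjusted p = 0.628). The exact 95% interval of the ratio, which also covers the error of the 18 counts, starts at 4.61. Il1b was at 0.185, 0.137 and 0.233 CPM in sham and at 0.494, 0.234 and 0.248 CPM after stroke (0.80, SE 0.75, edgeR adjusted p = 0.880).

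C3ar1, the receptor of complement C3a on microglia, rose from between 1.59 and 2.22 CPM in sham to between 5.91 and 6.20 CPM (1.61, SE 0.34, edgeR adjusted p = 0.0436). The C3ar1 call was lost in all 6 fits without 1 sham or ipsilateral library, with adjusted p up to 0.246. Tnfrsf12a, the receptor of TWEAK, rose from between 2.33 and 2.64 CPM in sham to between 5.50 and 8.89 CPM (1.59, SE 0.30, edgeR adjusted p = 0.0102). It was called in only 2 of those 6 fits, with adjusted p up to 0.0941. Slc15a3, a lysosomal peptide transporter, rose from between 0.672 and 0.933 CPM in sham to between 2.76 and 3.37 CPM (1.86, SE 0.29, edgeR adjusted p = 0.00108). None of 16 NF-kappaB subunits and feedback inhibitors passed in edgeR (9 at an unadjusted p under 0.05, 1 in DESeq2). In 10 of the 16 every ipsilateral library was above every sham library, beside 9.25% of all tested genes. None of 24 endothelial adhesion and matrix proteolysis genes passed (8 unadjusted, 3 in DESeq2), with a median of 0.91. Of the 24, 12 were above sham in every library, beside the same 9.25% of all tested genes. Icam1, which binds leukocytes to vessel walls, was at 1.83, 1.07 and 2.36 CPM in sham and at 4.14, 5.52 and 6.02 CPM after stroke (1.59, SE 0.40, edgeR adjusted p = 0.0952).

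A single gene each passed on the lists of the integrated stress response (20 tested), of activity-regulated genes (20) and of p53, growth arrest and cell death (24). Ppp1r15a, which restarts translation by removing phosphate from eIF2alpha, was at 8.64, 8.94 and 7.55 CPM in sham and at 15.0, 21.6 and 16.5 CPM in ipsilateral cortex (1.08, SE 0.23, edgeR adjusted p = 0.0413). Gadd45b, a stress sensor upstream of p38 and JNK that stands on both other lists, was at 8.59, 5.62 and 5.34 CPM in sham and at 13.2, 15.8 and 15.8 CPM (1.19, SE 0.26, edgeR adjusted p = 0.0449). Both groups of 3 were apart. With a surgery day block the Gadd45b call was lost (0.0636), as were those of Lrrc32 (0.061), Epha2 (0.056) and B3gnt7 (0.055). Ppp1r15a and Gadd45b were each called in only 1 of the 6 fits without 1 sham or ipsilateral library (adjusted p up to 0.192 and 0.246). Ddit3 (0.25, edgeR adjusted p = 0.841) and Cdkn1a (0.28, 0.888) did not pass.

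Rrad, which binds calcium channel subunits, was at 0.637 to 0.933 CPM in sham and at 2.28, 5.15 and 2.57 CPM after stroke (2.02, SE 0.34, edgeR adjusted p = 0.0037). Gem, of the same family, rose from between 0.846 and 1.11 CPM in sham to between 2.66 and 4.70 CPM (1.86, SE 0.38, edgeR adjusted p = 0.029). Dusp2, a nuclear MAP kinase phosphatase, rose from between 0.525 and 0.950 CPM in sham to between 2.10 and 3.32 CPM (1.92, SE 0.34, edgeR adjusted p = 0.00522). Dusp1 (-0.08, edgeR adjusted p = 0.981) and Dusp6 (-0.12, 0.927), on the same list of 16 ERK feedback regulators, did not pass. Of the 6 fits without 1 sham or ipsilateral library, Rrad was called in 4, Gem in 1 and Dusp2 in 5. Their edgeR adjusted p ran up to 0.057, 0.172 and 0.0856.

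The remaining rises belonged to no listed group. Ttll13, of the tubulin tyrosine ligase family, was at 0.811, 1.21 and 0.962 CPM in sham and at 4.85, 7.00 and 7.48 CPM in ipsilateral cortex (2.69, SE 0.36, edgeR adjusted p = 0.000266). Asb4, a ubiquitin ligase adaptor, had 14, 6 and 10 counts in sham and 54, 116 and 50 after stroke (2.86, SE 0.46, edgeR adjusted p = 0.00141). Sgms2, a sphingomyelin synthase, was at 10.6, 4.72 and 6.33 CPM after stroke against 2.03 to 2.25 CPM in sham (1.75, SE 0.38, edgeR adjusted p = 0.0436). Its highest value was in the library rich in choroid plexus markers, and without that library the edgeR adjusted p was 0.183. The call was also lost without sham replicate 1, 2 or 3 (0.142, 0.233 and 0.172) and without ipsilateral replicate 3 (0.0894). Gm15124 (3.32, SE 0.55) and Gm10634 (2.76, SE 0.42) are unnamed transcripts, and Gm10634 overlaps Bcl2a1d and Mthfsl on the other strand. Defb42 (4.42, SE 0.78) had 0, 6 and 0 counts in sham and 35, 54 and 38 after stroke, and overlaps Defb30. Gm15124 and Defb42 were each called in 4 of the 6 fits without 1 sham or ipsilateral library (edgeR adjusted p up to 0.0673 and 0.0689).

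Of the other called genes, Lrrc32, which holds latent TGF-beta at the cell surface, was at 3.17, 2.21 and 2.57 CPM in sham and at 5.16, 8.50 and 10.8 CPM after stroke (1.62, SE 0.34, edgeR adjusted p = 0.0446). Aim1l (Crybg2 in the annotation) was at 1.18, 0.523 and 0.612 CPM in sham and at 2.75, 1.99 and 3.10 CPM (1.74, SE 0.37, edgeR adjusted p = 0.0344), and it overlaps Cd52. Of the 6 fits without 1 sham or ipsilateral library, Lrrc32 was called in 1 and Aim1l in 2. The edgeR adjusted p ran up to 0.246 for both. The rest were named after their values were seen. Above a log2 fold change of 1 were Kif23, a kinesin of cell division (1.72), the glycosyltransferase B3gnt7 (1.62), the ephrin receptor Epha2 (1.56) and the secreted Wnt antagonist Sfrp4 (1.35). Below it were Usp43 (0.90), Tmcc3 (0.83), Rasgef1b (0.80), the kinase Hunk (0.74), Rasl11b (0.68), the semaphorin Sema4c (0.67) and Arhgap42 (0.55). Rasgef1b, an exchange factor of small G proteins, was at 42.1, 42.5 and 41 CPM in sham and at 79.7, 65.2 and 74.1 CPM after stroke (SE 0.14, edgeR adjusted p = 0.00427).

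Lama1, Edn3 and Spry4 fell. Lama1, the laminin alpha 1 chain of basement membranes, was at 12.2, 10.1 and 10.2 CPM in sham and at 3.09, 4.88 and 4.93 CPM in ipsilateral cortex, 2.51-fold lower (-1.33, SE 0.20, edgeR adjusted p = 0.00104). Edn3, a ligand of the endothelin B receptor, was at 3.13, 2.46 and 3.50 CPM in sham and at 1.30, 1.25 and 1.61 CPM (-1.13, SE 0.23, edgeR adjusted p = 0.0227), while Edn2 of the same family rose from 8 pooled counts to 59 (2.88, SE 0.61, edgeR adjusted p = 0.034). Spry4, an inhibitor of receptor tyrosine kinase signals, was at 16.5, 15.2 and 17.5 CPM in sham and at 9.70, 11.7 and 10.3 CPM (-0.63, SE 0.13, edgeR adjusted p = 0.0337). The Edn3 and Spry4 calls were lost in 5 of the 6 fits without 1 library, with adjusted p up to 0.164 and 0.172. The Edn2 call was lost in all 6, with adjusted p up to 0.174.

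Several gene groups of the ischemic brain held no call. Of the 24 pathway lists, 16 had no member past the threshold in edgeR, with medians from -0.16 to 0.91. Calls were rare among all tested genes (0.227% rose and 0.0166% fell), so a list without one is no finding about its genes. Slc1a2, the main glutamate transporter of astrocytes, was at 2644, 2855 and 3406 CPM in sham and at 3204, 2704 and 2994 CPM in ipsilateral cortex (0.00, SE 0.14, edgeR adjusted p = 1). Slc1a3 (0.00, SE 0.14), Glul (-0.10, SE 0.11) and Gfap (0.15, SE 0.27) did not pass either. Of 18 glutamate uptake, release and metabolism genes 1 had an unadjusted p under 0.05, and of 22 glutamate receptor genes 2 did. Among all 18087 tested genes, 997 were higher and 554 lower at that unadjusted p. DESeq2 called none of the genes on these 2 lists.

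Levels were also set beside those of contralateral cortex at 3 h. The labels do not say whether tissue of the opposite sides came from the same animals, so whether these differences are within or between animals is unknown. Ipsilateral cortex was higher than contralateral cortex in 42 genes (0.232% of those tested) and lower in 3 (0.0166%). Contralateral cortex was lower than sham in 2 genes, Per2 and Spry4 (0.0111%), and higher in 0 (0%) by edgeR. At an unadjusted p under 0.05, 884 of the 18087 tested genes were higher and 679 lower. DESeq2 called 9 higher and 25 lower. The median log2 difference of all genes between contralateral cortex and sham was 0.01. These comparisons share libraries with the one against sham, so values are given side by side. Mitochondrial ribosomal RNA took 36.7% of contralateral replicate 1. Without that library, ipsilateral cortex was higher than contralateral cortex in 16 genes and lower in 4. With mitochondrial and other abundant RNAs left out, it was higher in 43 and lower in 3. The cause of these shifts was not tested.

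None of the 25 chaperones passed between contralateral cortex and sham in edgeR (1 lower at an unadjusted p under 0.05, 0 in DESeq2). Of the 25, 20 had a negative difference, with a list median of -0.08 beside 0.01 for all genes. Their summed levels were 2962 to 3581 CPM against 3494 to 3957 CPM in sham. Hspa8 had a difference of -0.26 and Hsp90ab1 of -0.28. Hspa1a was at 2.76, 3.36 and 3.96 CPM in contralateral cortex, and the hemispheres differed by 5.69 on the log2 scale (edgeR adjusted p = 1.25e-07). Atf3 (4.23, adjusted p = 0.000244), Tnf (4.67, 0.0039), Jun (1.66, 0.00481) and Hsph1 (1.14, 0.0129) also differed between hemispheres in edgeR.

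For other called genes, chosen after their values were seen, the contralateral libraries lay outside the sham range on the side of the ipsilateral ones. Both comparisons use the same 3 sham libraries. Sox9 was at 14.0, 9.09 and 12.0 CPM in contralateral cortex (0.89 against sham, edgeR adjusted p = 0.154), and the hemispheres differed by 0.22 (0.729). Edn3 was at 1.67, 1.78 and 1.81 CPM (-0.79, 0.331), Klf11 at 9.41, 8.18 and 6.83 CPM (0.62, 0.317) and Lama1 at 7.08, 6.19 and 7.51 CPM (-0.65, 0.36), each with edgeR adjusted p in second place. Spry4 was lowest in contralateral cortex, at 8.05, 8.02 and 7.39 CPM (-1.07, edgeR adjusted p = 0.000203, and 0.226 with only the 6 libraries fitted).

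**Figure D4:**
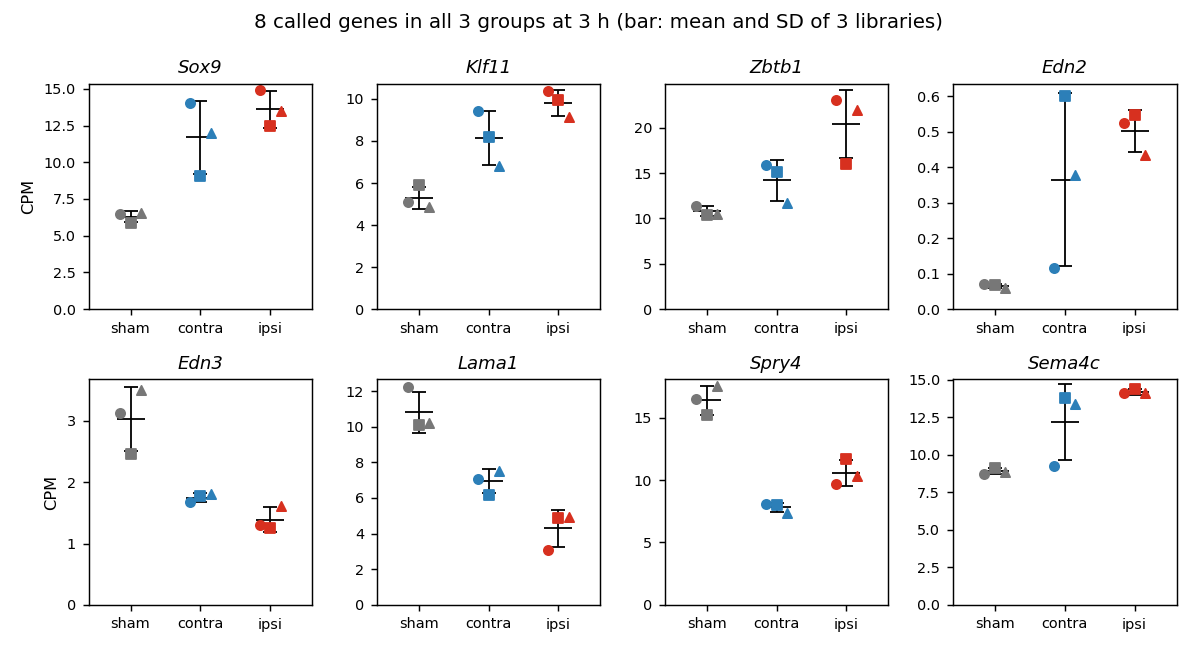
CPM (vertical axes, from 0) of 8 called genes in sham, contralateral and ipsilateral cortex at 3 h. Circles, squares and triangles are replicates 1, 2 and 3, and bars are the mean and SD of 3 libraries. The 8 genes were chosen for contralateral libraries that lie on the same side of the shared sham range as the ipsilateral ones, which is therefore no finding.

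None of the 28 immediate early factors passed between contralateral cortex and sham in edgeR. At an unadjusted p under 0.05, 11 were lower, beside 679 of all 18087 tested genes. DESeq2 called 3 lower (Egr1, Egr2 and Egr4), beside 25 lower among all genes. Of the 28, 23 had a negative and 5 a positive difference, with a list median of -0.33 beside 0.01 for all genes. Fos was at 11.7, 12.4 and 10.0 CPM in contralateral cortex (-1.57, edgeR adjusted p = 0.471), and the hemispheres differed by 2.78 (0.0456). Npas4 was at 4.98, 6.04 and 5.55 CPM (-1.61, edgeR adjusted p = 0.425), with a hemisphere difference of 3.17 (0.0134), and Arc at 37.2, 86.3 and 77.6 CPM (-1.80, 0.118). Against contralateral cortex 10 of 28 immediate early factors passed, against sham 2.

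Against later ipsilateral cortex (the mean of 6, 12 and 24 h), 620 genes were higher at 3 h (3.43%) and 718 lower (3.97%). Of the 44 genes, 6 were higher at 3 h and 6 lower. The 44 were called from the same 3 h libraries, so these counts are not independent of that choice. Asb4 was highest at 3 h, with a group mean of 0.251 CPM in sham and 1.83 CPM at 3 h, then 0.814, 0.268 and 0.486 CPM at the later times (difference 1.96, edgeR adjusted p = 0.000743). Hsph1 had group means of 171 CPM in sham and 361 CPM at 3 h, then 803, 981 and 642 CPM (-1.14, edgeR adjusted p = 0.000839). Lama1 was at 4.30 CPM at 3 h and at 7.51, 7.10 and 7.13 CPM later (-0.75, edgeR adjusted p = 0.00982). Spry4 was at 10.6 CPM at 3 h and at 22.2, 21.2 and 13.9 CPM later, against 16.4 CPM in sham (-0.82, edgeR adjusted p = 0.000209).

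**Figure D5:**
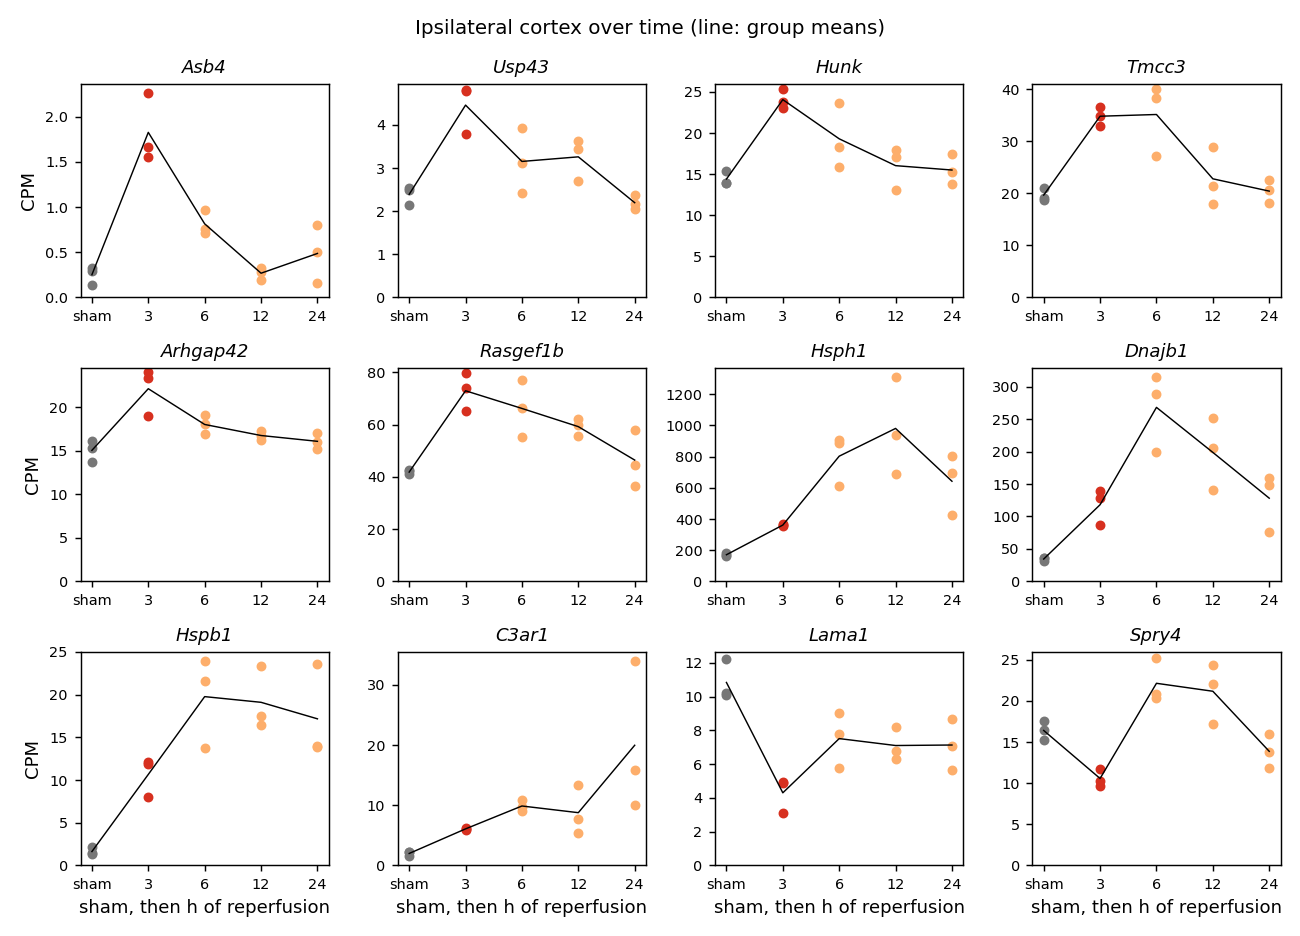
CPM (vertical axes, from 0) of 12 called genes in sham and in ipsilateral cortex at 3, 6, 12 and 24 h. Points are libraries and lines join group means. Asb4, Usp43, Hunk, Tmcc3, Arhgap42 and Rasgef1b were higher at 3 h than the later mean, and Hsph1, Dnajb1, Hspb1, C3ar1, Lama1 and Spry4 lower.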

How the data were processed

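The values are raw counts per gene as the authors deposited them. The submitters' processing notes name STAR 2.5.0a, the mm10 build, featureCounts 1.4.3-p1 and edgeR, the last with no version. Neither annotation nor strand setting is stated there. filterByExpr (at least 10 counts, and 15 in total) took out 4253 rows with 0.0116% of the counts. Counts were scaled by TMM and all 27 libraries (9 groups of 3) were fitted in edgeR 4.0.16 (R 4.3.3) by a robust quasi-likelihood model, so groups share 1 estimate of spread. P-values were Benjamini-Hochberg adjusted over 18087 genes. The steps were also run on simulated counts with a common spread for all genes. That run does not cover a spread that differs between genes or a library that stands apart. SE come from the test statistic. Positions are from GENCODE M21 and promoters from RefSeq.

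The members, the 38 gene lists and the promoter patterns were chosen with earlier results of these data known. Named genes are the 15 largest rises and 10 largest falls past the threshold with a mean of at least 2 CPM and no overlap with sham, up to 4 members per list by p, and Hspa1a, Hspa1b, Fos, Atf3, Slc1a2, Slc1a3, Glul and Gfap. Of the 44 called genes, 18 were named by size, 5 by lists, and 21 fall outside the rule, those of them named having been chosen after their values were seen. Some genes the rule picks are left out for brevity.

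Per the labels, a replicate number marks a surgery day, so numbers pair libraries. After removal of group means, same-numbered sham and ipsilateral libraries correlated at -0.049, 0.014 and 0.058. Day and library batch cannot be told apart. No 2 of the 6 libraries were identical. Alternatives were RLE scaling, 2 other filters, abundant RNAs left out, only the compared libraries, DESeq2 1.42.0, a replicate block, and libraries left out.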

Additional observations from a re-analysis of the deposited data

Results flagged for a closer look

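Ipsilateral cortex at 3 h was tested in edgeR against the mean of the later ipsilateral groups, in a contrast that uses no sham library. The level differed in 12 of the 44 called genes. Of these, 6 were lower at 3 h: Hsph1 (-1.14 on the log2 scale, adjusted p = 0.000839), C3ar1 (-0.98, 0.0299), Spry4 (-0.82, 0.000209), Hspb1 (-0.81, 0.0294), Lama1 (-0.75, 0.00982) and Dnajb1 (-0.68, 0.0389). The other 6 were higher: Asb4 (1.96, adjusted p = 0.000743), Usp43 (0.65, 0.0107), Hunk (0.51, 0.00957), Tmcc3 (0.46, 0.0458), Arhgap42 (0.38, 0.0148) and Rasgef1b (0.36, 0.0407). For Hsph1, C3ar1, Hspb1 and Dnajb1, genes that were above sham at 3 h, the mean of the later groups was higher still. Hsph1 and Hspb1 libraries at every later time lay above those at 3 h. Dnajb1 was at 75.5, 149 and 160 CPM at 24 h, overlapping 86.3, 139 and 129 CPM at 3 h. C3ar1 ranged from 5.32 to 13.3 CPM at 12 h, overlapping 5.91 to 6.20 CPM at 3 h. The same ipsilateral libraries at 3 h served to call the 44 genes, so these differences are not independent of that choice.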

How the results depend on the processing

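The cause of these shifts was not tested. Against sham, fitting only the 6 compared libraries gave 194 rises and 46 falls, DESeq2 140 and 33, and a filter of 1 CPM in 3 libraries 6 falls. The replicate block (surgery day) gave 9 falls, and the replicate block with only the 6 libraries 185 rises and 58 falls. Leaving out 1 library gave 10 to 79 rises and 1 to 24 falls, the highest without contralateral replicate 1, which is not one of the compared groups. Against contralateral cortex, fitting only the compared libraries gave 18 rises and 0 falls, DESeq2 102 and 31, no filter 1 fall and the replicate block 11 falls, and leaving out 1 library gave 16 to 58 rises and 0 to 74 falls. For contralateral cortex against sham, RLE scaling gave 1 rise, no filter 1 and 5 falls, the CPM filter 1 and 4, abundant RNAs left out 1 and 4, only the compared libraries 1 fall, DESeq2 9 and 25 and the replicate block 1 and 5. Leaving out 1 library gave 0 to 1 rises and 1 to 3 falls. Against later ipsilateral cortex, leaving out 1 library gave 148 to 1115 higher and 244 to 1077 lower genes. No called gene changed direction under these alternatives. With 3 libraries a group and totals of 31469675 to 48830897 counts, genes with few counts, such as the chemokines, had wide errors.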
